A study of Mus musculus with 60 samples.

Results

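The genes described here are 38 mouse genes of glucose uptake, glycolysis and the response to low oxygen, followed through 60 RNA-seq libraries of mammary epithelial and mammary tumour cells. They were chosen by gene symbol, from a list of hypoxia and glycolysis genes. The rule used no measured value, but the list was drawn up with earlier results of these data known. Of them, 20 carry or regulate glucose uptake, glycolysis and lactate export, and 18 are other targets or regulators of hypoxia-inducible factor (HIF). The count tables listed 54532, 54532 and 55487 genes in experiments 1, 2 and 3, and each table held all 38. A filter on low counts left 36 of the 38 members among 14345 tested genes in experiment 1, 36 among 14983 in experiment 2 and 37 among 13854 in experiment 3. The carbonic anhydrase gene Car9 and Adm, which encodes the peptide adrenomedullin, did not pass the filter in NMuMG cells. Slc16a3, which encodes the lactate exporter MCT4, did not pass it in 4T1 cells, where it had 3 counts in all 12 libraries together.

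HIF is a dimer whose alpha subunit is hydroxylated by the EGLN prolyl hydroxylases when oxygen is present and then destroyed through VHL. When oxygen is scarce the alpha subunit persists and the dimer binds short motifs, ACGTG or GCGTG, at genes for glucose transport, glycolysis, pH control, vessel growth and mitochondrial turnover. The protein, and not the mRNA, of HIF1α is the main point of control, and RNA-seq does not read it. Glycolysis turns glucose into pyruvate. Lactate dehydrogenase reduces the pyruvate to lactate, and pyruvate dehydrogenase kinases such as PDK1 hold it back from the mitochondrion. In mammary tumours, expression of this programme is a familiar sign of hypoxic areas.

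Experiment 1 used NMuMG, a mouse mammary epithelial line, as control cells with the guide named sgCT and as PBRM1 knockout cells (sgPBRM1), harvested at 0, 24, 48 or 72 h after 5 ng/ml of TGFβ1 was given. PBRM1 is a subunit of the PBAF chromatin remodelling complex, and TGFβ1 is a growth factor that drives epithelial cells toward a mesenchymal state. Experiment 2 used NMuMG with the control vector pLKO or with shATF3, labelled ATF3 knockdown, at the same 4 times of TGFβ1. ATF3 is a stress-induced transcription factor. Experiment 3 used 4T1, a mouse triple negative mammary tumour line, with pLKO or with shPBRM1 (PBRM1 knockdown), untreated (labelled 0 h) or after 4 days of TGFβ1 at 5 ng/ml. The labels do not say whether the altered cells are a clone or a pool, and name no oxygen level beyond a standard incubator. Each of the 20 groups had 3 libraries, described as biological replicates. NMuMG cells have no untreated libraries at 24 to 72 h and 4T1 cells have none at 4 days, so TGFβ1 and time in culture cannot be told apart in either line.

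Experiment 1 had 16.2 to 21.9 M counts a library, experiment 2 had 15.6 to 22.7 M, and the deepest was experiment 3 with 22 to 31.1 M. The deposited values are read counts per gene, and levels are given in CPM, with library totals adjusted by TMM. Changes are log2 ratios, with the standard error (SE) and an adjusted p from edgeR's quasi-likelihood test, and a gene is called higher or lower at an adjusted p under 0.05. The spread between replicates was largest in experiment 2, with a biological coefficient of variation of 7.59% against 2.88% and 2.95%. In that experiment replicate 2 of shATF3 at 72 h and replicate 1 of shATF3 at 0 h each stood apart from the other libraries of its group. Replicate 3 of shATF3 at 48 h did so too, and in experiment 3 replicate 2 of untreated 4T1 pLKO. Pbrm1 mRNA was 97.2 CPM in the knockout and 115 CPM in the control NMuMG cells at 0 h, and a guide that cuts a gene need not lower its mRNA, so this level does not check the knockout. In 4T1 cells Pbrm1 was 28.3 CPM in the knockdown against 236 CPM in the control. Atf3 went against its label at 0 h, with 12.3 CPM in the shATF3 libraries and 9.95 CPM in pLKO (log2 0.31, adjusted p = 0.106). It was lower at 24 h, at 17.8 against 26.9 CPM (log2 −0.59, adjusted p = 0.00135). At 48 h it was 10.9 against 14.3 CPM and not called (log2 −0.38, adjusted p = 0.0575), and at 72 h it was 6.78 against 9.28 CPM with overlapping libraries (log2 −0.46, adjusted p = 0.0326). Experiment 2 is therefore described below through the libraries labelled ATF3 knockdown. Markers of epithelium summed to 6410 to 12300 CPM in experiment 1, 4260 to 9790 CPM in experiment 2 and 4230 to 5130 CPM in experiment 3. In NMuMG cells only 5 of the 9 passed 1 CPM in any group, and Epcam, Cldn3, Cldn7 and Esrp1 had group means of at most 0.577 CPM. The sum was 11000 to 11300 CPM in control and 8330 to 8740 CPM in PBRM1 knockout NMuMG cells at 0 h. At 72 h it was 9500 to 9740 against 6410 to 6590 CPM. In experiment 2 at 72 h it was 6000 to 6230 CPM in pLKO and 4260 to 4450 CPM in the shATF3 libraries. Endothelial markers summed to at most 1.28 CPM and leukocyte markers to at most 24.2 CPM. The 5 fibroblast markers differed between groups as well. Their sum was 0.741 to 1.23 CPM in control and 0.597 to 0.784 CPM in PBRM1 knockout NMuMG cells at 0 h and 37.1 to 40 against 62.6 to 73.8 CPM at 72 h, nearly all of it Pdgfrb, while Dcn and Lum were at or near 0. In experiment 2 the sum at 72 h was 48.5 to 54.7 CPM in pLKO and 33.8 to 47.7 CPM in the shATF3 libraries. In 4T1 cells it was 13.4 to 14.4 CPM in control and 22 to 22.2 CPM in knockdown cells untreated, and 25 to 28.8 against 33.9 to 38.6 CPM after 4 days. The part of these genes in the results was not tested. These are bulk samples, so fewer cells of a kind and less RNA per cell cannot be told apart.

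Among the untreated sgCT libraries the levels per kb of gene length ran from 0.0854 CPM per kb for Adm to 704 CPM per kb for Pgk1, the phosphoglycerate kinase gene. Ldha (lactate dehydrogenase A) stood at 687, Gapdh at 684, Pkm (pyruvate kinase) at 624 and Aldoa (aldolase A) at 478 CPM per kb. The high end was therefore held by glycolytic enzymes, and Ddit4, a stress-induced inhibitor of mTORC1, was the most abundant of the other HIF targets at 101 CPM per kb. In untreated 4T1 control cells the same 5 glycolytic genes led on this scale, with Ldha at 715, Pkm at 634, Pgk1 at 629, Aldoa at 564 and Gapdh at 555 CPM per kb. These levels use each gene's own row. Near-identical copies held 11.4% of the counts of the Gapdh family in experiment 1 and 21.3% in experiment 3, so the rank of Gapdh among these genes is uncertain. Car9 was at most 0.61 CPM in any NMuMG library and 46.5 CPM ± 4.78 (SD, n = 3) in untreated 4T1 control cells.

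Promoter sequences were read from RefSeq on the GRCm38.p6 build, as windows of 250 bases before to 50 bases after each gene start. They were available for 36 of the 38 members, in 54 windows. The motif of the HIF dimer was searched as ACGTG or GCGTG on either strand, so CACGT and CACGC also count, and matches may overlap. At least 1 match was found in 42 of the 54 windows (77.8%), against 14380 of all 32851 promoter windows (43.8%). Windows of 1 gene can overlap and share a match, as some of Ak4, Eno1 and Aldoa do. The shares are per window, and none was computed per gene. ACGTG alone was in 51.9% of the members' windows against 19.6% of all, and GCGTG in 55.6% against 32.4%. The share was 76.7% in the windows of the glycolysis members and 79.2% in those of the other HIF targets. A match describes letters in a window and says nothing of binding. The members were chosen as glycolysis genes and HIF targets, so their larger share is no independent evidence. The windows were not matched for base composition. The 5 windows below belong to members whose values carry the results, and show how the motif number varies among them. Capitals mark the matches.
Bnip3, chr7:138909457-138909756, minus strand: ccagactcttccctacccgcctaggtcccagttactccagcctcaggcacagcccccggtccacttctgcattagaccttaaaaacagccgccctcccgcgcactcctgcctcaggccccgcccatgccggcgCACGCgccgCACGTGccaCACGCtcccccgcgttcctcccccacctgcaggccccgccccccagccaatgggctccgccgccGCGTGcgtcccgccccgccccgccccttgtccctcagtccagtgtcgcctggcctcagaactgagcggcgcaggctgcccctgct
Ldha, chr7:46845554-46845853, plus strand: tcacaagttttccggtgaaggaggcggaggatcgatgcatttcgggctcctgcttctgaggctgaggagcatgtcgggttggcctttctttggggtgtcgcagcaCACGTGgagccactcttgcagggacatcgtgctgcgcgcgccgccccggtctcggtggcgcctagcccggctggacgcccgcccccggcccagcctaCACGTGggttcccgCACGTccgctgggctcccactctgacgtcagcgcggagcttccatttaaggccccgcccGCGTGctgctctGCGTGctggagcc
Pgk1, chrX:106186850-106187149, plus strand: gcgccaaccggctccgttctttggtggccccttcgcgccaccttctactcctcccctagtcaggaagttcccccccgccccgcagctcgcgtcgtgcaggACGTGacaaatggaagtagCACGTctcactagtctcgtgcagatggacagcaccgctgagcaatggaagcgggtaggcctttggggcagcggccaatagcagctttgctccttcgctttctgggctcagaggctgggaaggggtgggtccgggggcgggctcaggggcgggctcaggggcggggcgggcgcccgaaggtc
Egln3, chr12:54203825-54204124, minus strand: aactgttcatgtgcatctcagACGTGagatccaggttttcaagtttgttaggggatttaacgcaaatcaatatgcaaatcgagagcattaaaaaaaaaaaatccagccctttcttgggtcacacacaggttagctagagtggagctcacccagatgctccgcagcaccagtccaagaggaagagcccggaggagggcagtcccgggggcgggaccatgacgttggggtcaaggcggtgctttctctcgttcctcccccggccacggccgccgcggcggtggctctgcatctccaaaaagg
Pfkfb4, chr9:108991652-108991951, plus strand: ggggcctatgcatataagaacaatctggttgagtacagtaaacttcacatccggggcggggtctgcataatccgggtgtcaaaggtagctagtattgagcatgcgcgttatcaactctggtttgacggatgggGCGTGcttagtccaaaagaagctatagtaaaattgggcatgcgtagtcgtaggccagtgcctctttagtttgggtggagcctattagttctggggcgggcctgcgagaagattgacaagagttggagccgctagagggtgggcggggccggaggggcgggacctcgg
Ldha held 7 matches in this window, Bnip3 5, Pgk1 2, and Egln3 and Pfkfb4 1 each. The windows of Eno2, the neuronal enolase, and of Tpi1, triosephosphate isomerase, held none.

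The response to TGFβ1 in sgCT cells, the NMuMG control of experiment 1, was a fall at 24 h and a mix of higher and lower members at 72 h. At 24 h in sgCT cells, 25 of the 36 tested members were lower and 7 were higher, where 29.5% of all tested genes were called lower and 29.9% higher. The median over members was −0.44, against a median of 0 within 0.03 over all genes tested. By 72 h, 18 were higher and 10 lower, with 34.9% and 34.4% of all genes called, and a median over members of 0.10. Scaling by library totals alone, without TMM, shifted the median of all genes by −0.119 at 72 h and gave 5 members higher and 26 lower at 24 h and 16 higher and 15 lower at 72 h. Over all genes the share of higher calls went from 50.4% to 40.1% at 24 h and from 50.4% to 40.2% at 72 h. The fall at 24 h took 14 of the 20 glycolysis members (median −0.56) and 11 of the 16 tested other HIF targets (median −0.27). At 72 h, 8 of the 20 glycolysis members were higher and 6 lower (median −0.01), near the shares of all genes called. Of the 16 other HIF targets, 10 were higher and 4 lower (median 0.37).

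Of the glycolytic enzymes, Pgk1 read 1640, 1570 and 1520 CPM in sgCT cells at 0 h, 851, 870 and 809 CPM at 24 h and 1400, 1490 and 1370 CPM at 72 h. The 24 h libraries lay wholly below the others (log2 −0.90, SE 0.0367, adjusted p = 1.78e-30), and at 72 h the level was still lower than at 0 h (log2 −0.15, adjusted p = 2e-04). Ldha read 2290, 2310 and 2220 CPM at 0 h, 1240, 1260 and 1240 CPM at 24 h and 1720, 1830 and 1670 CPM at 72 h. Its 3 groups did not overlap (log2 −0.87 at 24 h, adjusted p = 2.6e-31). Slc2a1, the glucose transporter GLUT1, fell from 201, 198 and 179 CPM to 128, 132 and 123 CPM at 24 h (log2 −0.60, adjusted p = 1.12e-17) and at 72 h overlapped its starting level (177, 205 and 167 CPM, log2 −0.08, adjusted p = 0.129). Hk2, the inducible hexokinase, went the other way: 106, 106 and 101 CPM at 0 h became 425, 424 and 409 CPM at 72 h (log2 2.01, SE 0.0348, adjusted p = 5.77e-50). Hk1, the constitutive hexokinase, also rose by 72 h (log2 0.60).

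Among the regulators of flux, Pfkfb4, a bifunctional enzyme that sets fructose 2,6-bisphosphate, had the largest rise of the members. It read 2.55, 3.58 and 2.75 CPM at 0 h, 18.5, 20.4 and 20.6 CPM at 24 h and 27.9, 24.1 and 28.7 CPM at 72 h in sgCT cells. The rise at 72 h was 3.19 on the log2 scale (SE 0.113, adjusted p = 7.49e-34), with no overlap between times 0 and 72 h. Its relative Pfkfb3 rose too, by 1.29 (SE 0.0639, adjusted p = 1.29e-26). Pdk1 fell from 120, 113 and 98.4 CPM to 38.7, 40.2 and 36.5 CPM at 24 h (log2 −1.52, adjusted p = 3.34e-30). At 72 h it read 104, 112 and 98.8 CPM and overlapped its level at 0 h (log2 −0.07, adjusted p = 0.244).

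The HIF pathway genes did not move as a block. Hif1a, which encodes the oxygen-regulated subunit, read 135, 132 and 123 CPM at 0 h and 164, 158 and 161 CPM at 72 h in sgCT cells, without overlap (log2 0.31, adjusted p = 8.94e-11). Egln1, the main HIF prolyl hydroxylase, rose from 141, 140 and 130 CPM to 208, 210 and 188 CPM (log2 0.56). Egln3, a hydroxylase that is itself a HIF target, fell from 105, 103 and 95.9 CPM to 17.4, 16.8 and 15.4 CPM at 24 h (log2 −2.62, SE 0.0818, adjusted p = 3.36e-36) and stood at 26.9, 29.2 and 23.5 CPM at 72 h (log2 −1.94). It was the member with the largest fall at both of these times, and its libraries at 24 and 72 h lay far under those at 0 h.

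Among the other targets, Bnip3 and Ak4 were lower at 24 h and higher at 72 h than at 0 h, while Vegfa and Ddit4 were higher at both times. Bnip3, a mitophagy receptor, read 78.5, 68.5 and 60.3 CPM at 0 h, 28, 27.9 and 28.4 CPM at 24 h and 92.7, 108 and 80.9 CPM at 72 h. The 24 h level was lower (log2 −1.30, SE 0.0865, adjusted p = 2.42e-20) and the 72 h level higher (log2 0.44, SE 0.0746, adjusted p = 5.47e-07), without overlap. Ak4, a mitochondrial adenylate kinase, had the same shape, with a log2 change of −1.04 at 24 h and 1.94 at 72 h. Vegfa, the vascular growth factor, showed no dip: 257, 262 and 244 CPM at 0 h were followed by 347, 345 and 344 CPM and then 461, 486 and 444 CPM (log2 0.87 at 72 h, SE 0.0333, adjusted p = 4.68e-32). Ddit4 also rose at both times, by 1.04 at 24 h and 0.88 at 72 h, and the collagen prolyl hydroxylase genes P4ha1 and P4ha2 were lower at 24 h (log2 −0.25 and −0.21) and higher at 72 h (log2 0.61 and 0.65).

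**Figure D1:**
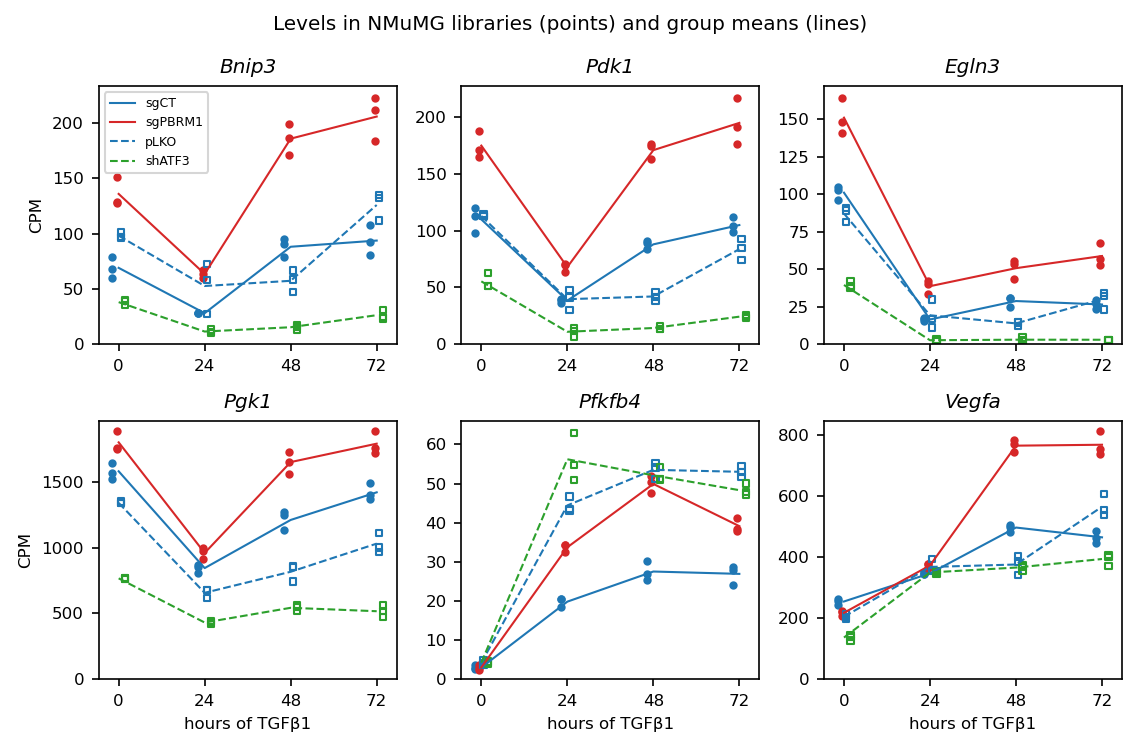
Levels of Bnip3, Pdk1, Egln3, Pgk1, Pfkfb4 and Vegfa in CPM on the vertical axes against hours of TGFβ1 on the horizontal axes, in the 4 NMuMG cell types of experiments 1 and 2. Points are libraries and lines join group means: Bnip3 in sgCT cells dips to 28 CPM at 24 h and is 80.9 to 108 CPM at 72 h, while Vegfa climbs from 244 to 262 CPM to 444 to 486 CPM without a dip.

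The control cells of experiment 2, which carry a vector in place of a guide, had more members lower than higher at 24 h and fewer at 72 h. Their counts differed from those of sgCT cells at 48 h and in the other HIF targets at 24 h. The experiments were fitted apart, with a spread of 7.59% in experiment 2 and 2.88% in experiment 1. The difference between them was not tested. At 24 h in pLKO cells, 17 of the 36 members were lower and 11 higher, with 26.5% and 26.9% of all genes called. The glycolysis members had 12 lower and 6 higher (median −0.49), and the other HIF targets 5 lower and 5 higher (median 0.03). At 48 h, outside the planned comparisons, 19 were lower and 9 higher in pLKO cells, with 26.7% and 27.2% of all genes called. In sgCT cells 9 were lower and 14 higher at 48 h, with 32.1% and 33.4% of all genes called. At 72 h, 11 were lower and 14 higher in pLKO cells, with 29.1% and 28.9% of all genes called. Leaving out 1 library at a time gave 8 to 10 lower and 13 higher at 72 h. Under library totals alone the share of higher calls over all genes went from 50.4% to 37.3% at 24 h and from 49.8% to 35.9% at 72 h, and 16 members were lower and 11 higher at 72 h. The glycolysis members had 10 lower and 5 higher at 72 h (median −0.14), and the other HIF targets 1 lower and 9 higher (median 0.32). Pfkfb4 rose from 4.02, 4.77 and 3.61 CPM to 53, 54.4 and 51.6 CPM (log2 3.67, adjusted p = 2.25e-22), and Vegfa from 197, 211 and 204 CPM to 536, 605 and 553 CPM (log2 1.47, adjusted p = 1.26e-17). At 24 h the 3 pLKO libraries differed from each other at several members. Bnip3 read 72.5, 27.3 and 58.3 CPM, Eno2 18, 2.13 and 5.97 CPM, Aldoc (aldolase C) 9.02, 1.62 and 5.52 CPM and Egln3 29.9, 11.1 and 16.8 CPM. Replicate 1 was the highest and replicate 2 the lowest of the 3 at each of these 4 genes, and its part in the 24 h counts was not tested beyond leaving out each library, which gave 14 to 18 members lower and 10 to 12 higher.

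PBRM1 knockout NMuMG cells held higher levels of most members than control cells at every time, and the number was larger at 48 and 72 h than at 0 and 24 h. At 0 h, 24 of the 36 tested members were higher and 2 lower (Pfkp and Vegfa), where 21.9% of all genes were called higher and 23.2% lower. At 24 h, 25 were higher and 4 lower (Pfkfb3, Aldoc, Pfkp and Tpi1), against 23.1% and 23.7% of all genes. Without replicate 1 of the knockout cells at 24 h, 2 were lower. At 48 h, 32 were higher and 2 lower (Pfkfb3 and Pfkp), against 24.4% and 25.6%. At 72 h, 31 were higher and 2 lower (Hk2 and Pfkfb3), against 24.3% and 25.6%. The median over members was 0.20, 0.25, 0.33 and 0.32 at the 4 times. The other HIF targets stood higher than the glycolysis members on this measure, with medians of 0.45 against 0.14 at 0 h and 0.63 against 0.23 at 72 h.

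The changes in the glycolytic enzymes were small and those in a few low-expressed isoenzymes large. Pgk1 read 1760, 1890 and 1750 CPM in knockout cells at 0 h, all above the sgCT libraries (log2 0.19, SE 0.036, adjusted p = 1.37e-05), and 1760, 1890 and 1720 CPM at 72 h (log2 0.33, SE 0.0363, adjusted p = 1.14e-11). Ldha read 2370, 2540 and 2360 CPM at 0 h (log2 0.09, adjusted p = 0.019) and 1890, 2010 and 1780 CPM at 72 h (log2 0.12, adjusted p = 0.00157), where the groups overlapped. Eno2 read 13.7, 17.5 and 16 CPM in knockout cells against 5.41, 6.4 and 4.82 CPM in control at 0 h (log2 1.5, SE 0.133, adjusted p = 1.11e-14), and the gap remained at each later time (log2 1.65, 1.83 and 1.62). Hk1 read 257, 272 and 255 CPM against 191, 192 and 181 CPM at 0 h (log2 0.48, SE 0.0344, adjusted p = 4.54e-18). Tpi1 did not pass the threshold at 0 h (log2 0.05), nor did Pgam1, phosphoglycerate mutase, at 0 or 24 h (log2 0.03 at each).

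A few members of glucose handling went their own way in knockout cells. Slc2a1 overlapped control at 0 h (184, 187 and 182 CPM, log2 −0.07, adjusted p = 0.245) and was higher at 48 h, with 278, 285 and 273 CPM against 202, 183 and 175 CPM (log2 0.58, adjusted p = 1.44e-17). Pfkp, a phosphofructokinase isoform, was lower at 0 h (3.13, 1.72 and 1.84 CPM against 5.97, 6.13 and 5.98 CPM, log2 −1.43) and reached 8.23, 10.9 and 9.28 CPM against 9.86, 10.8 and 10.5 CPM at 72 h (log2 −0.13). The gene Pitrm1 overlaps Pfkp on the opposite strand and held 63281 counts where Pfkp held 2850 in experiment 1, and the strand handling of the NMuMG counts is not stated, so these Pfkp values are uncertain. Pfkfb3 read 24.9, 23.6 and 25 CPM in knockout cells against 54.2, 55.3 and 55.6 CPM at 48 h (log2 −1.17, SE 0.0604, adjusted p = 9.73e-25). It was lower at 24 and 72 h as well (log2 −0.63 and −0.50), while Pfkfb4 was higher at 24, 48 and 72 h (log2 0.76, 0.86 and 0.54). The pair of isoenzymes therefore moved in opposite directions between the genotypes. Hk2 was 390, 381 and 383 CPM against 425, 424 and 409 CPM at 72 h, slightly lower (log2 −0.12, adjusted p = 0.000646), after being higher at the 3 earlier times (log2 0.22, 0.36 and 0.34).

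Pdk1 and Bnip3 kept their gap at all 4 times. Pdk1 read 171, 188 and 165 CPM in knockout cells at 0 h, 63.6, 69.7 and 70.8 CPM at 24 h and 191, 217 and 176 CPM at 72 h, each group above the matching control group. The log2 differences were 0.66, 0.82, 0.96 and 0.89 in order of time. Bnip3 read 128, 151 and 129 CPM at 0 h, 59.9, 63.8 and 67.2 CPM at 24 h and 212, 223 and 184 CPM at 72 h, again without overlap (log2 1.14 at 72 h, SE 0.0674, adjusted p = 4.38e-22). The mitochondrial targets Bnip3, Bnip3l, Higd1a and Ak4 were all called higher at 0 h and at 72 h, and Ak4 read 20.2, 23.7 and 19.9 CPM against 9.24, 10.3 and 5.82 CPM at 0 h (log2 1.33, SE 0.121, adjusted p = 2.67e-14).

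Of HIF and its hydroxylases, Hif1a mRNA overlapped control at 0 h (140, 135 and 130 CPM, log2 0.05, adjusted p = 0.274) and was higher at 72 h (185, 184 and 195 CPM, log2 0.22, adjusted p = 4.89e-07). Egln1 was higher at both, at 188, 191 and 180 CPM at 0 h (log2 0.44, adjusted p = 3.21e-15) and 255, 263 and 242 CPM at 72 h (log2 0.33). Egln3 read 148, 164 and 141 CPM at 0 h (log2 0.57, adjusted p = 1.05e-11) and 56.6, 67.4 and 52.5 CPM at 72 h (log2 1.15, SE 0.0845, adjusted p = 4.21e-18). Both hydroxylase genes were thus above control without overlap, while the fall of Egln3 after TGFβ1 was also seen in knockout cells (log2 −1.97 at 24 h).

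Of the secreted, collagen and nuclear targets, Vegfa, P4ha2 and Ankrd37 differed by more at 72 h than at 0 h, each with a positive interaction. Vegfa was lower in knockout cells at 0 h (220, 224 and 207 CPM, log2 −0.23, adjusted p = 1.17e-07) and higher at 72 h (737, 811 and 752 CPM, log2 0.73, SE 0.0318, adjusted p = 3.41e-28). P4ha2 read 49.9, 53.6 and 48.5 CPM against 39.8, 34.9 and 36.3 CPM at 0 h and 128, 146 and 126 CPM against 56.6, 65.8 and 51.6 CPM at 72 h (log2 1.2, SE 0.0623, adjusted p = 1e-24). P4ha1 was higher at both times too (log2 0.64 and 0.54). Ankrd37, a small ankyrin-repeat HIF target, read 23.9, 27.1 and 22.5 CPM against 10.1, 12.4 and 10.1 CPM at 72 h (log2 1.17, adjusted p = 1.69e-17). Its neighbour Ufsp2 overlaps it on the opposite strand and held 16032 counts where Ankrd37 held 7256, so its values share the limit given for Pfkp. Ddit4 read 274, 282 and 274 CPM against 173, 191 and 168 CPM at 0 h (log2 0.64, adjusted p = 9.61e-23) and narrowed to 0.29 at 72 h. Car12, a membrane carbonic anhydrase, read 4.43, 5.43 and 3.93 CPM against 1.74, 1.46 and 1.8 CPM at 0 h, without overlap, and was the member with the widest gap at 72 h. Ndrg1, a stress gene, overlapped control at 0 h, at 242, 265 and 245 CPM against 265, 233 and 214 CPM (log2 0.08), and Slc16a3 did not pass the threshold at any of the 4 times.

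**Figure D2:**
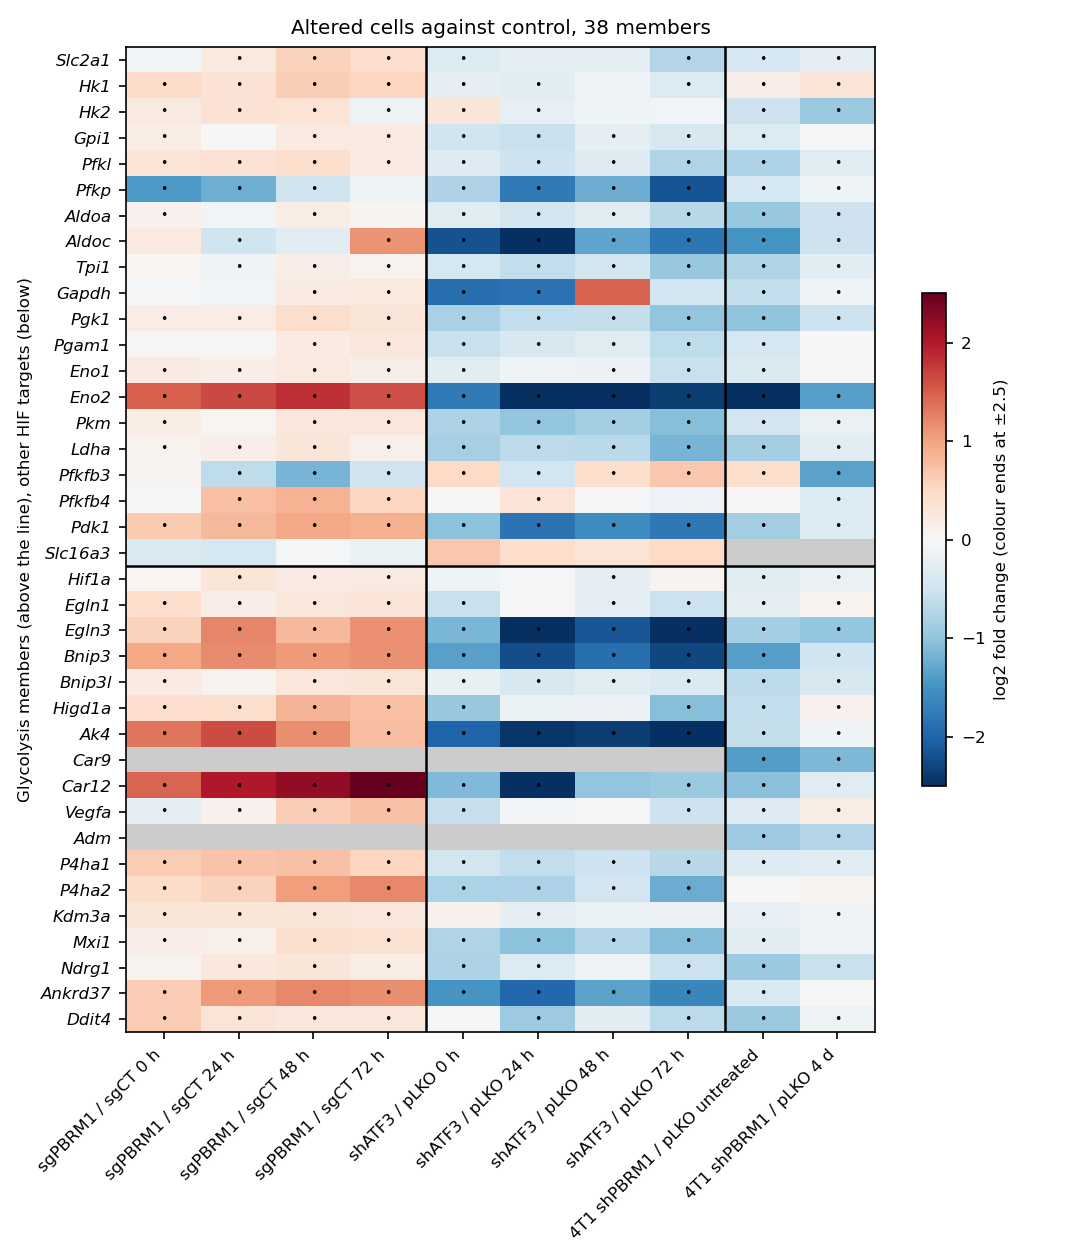
Heat map of the log2 difference between altered and control cells for the 38 members (rows) in each comparison at a matched time (columns), with colours ending at 2.5 in both directions, grey for members not tested and dots for adjusted p under 0.05. The line separates the 20 glycolysis members from the 18 other HIF targets, and the PBRM1 knockout columns are mostly in the higher colour (31 of 36 at 72 h) and the shATF3 and 4T1 knockdown columns mostly in the lower one (29 of 36 at 72 h and 33 of 37 untreated).

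The response to TGFβ1 itself was then compared between the genotypes. In knockout cells 25 of 36 members were lower and 7 higher at 24 h, where 29.7% and 30% of all genes were called. At 72 h, 8 were lower and 23 higher, against 34.9% and 36.2% of all genes. Under library totals alone, which shifted the median of all genes by −0.188 at 72 h, 13 were lower and 18 higher at 72 h, and the share of higher calls over all genes went from 50.2% to 36.9% at 24 h and from 50.9% to 36% at 72 h. The interaction, which is the change by 72 h in knockout cells minus that in control cells, was positive for 16 members and negative for 4 past the threshold, where 11.6% and 15.8% of all genes were called. Scaling by library totals alone gave 11 positive and 8 negative in place of 16 and 4, leaving out 1 library at a time gave 3 to 7 negative (7 without replicate 3 of the control or replicate 2 of the knockout cells at 72 h), and over all genes the share of positive calls went from 42.4% to 26.1%. Vegfa had an interaction of 0.95 (SE 0.0468, adjusted p = 4.71e-25), with a rise of 1.82 in knockout and 0.87 in control cells. Car12 had 1.30 (SE 0.221, adjusted p = 3.22e-06), P4ha2 0.75 (SE 0.0956, adjusted p = 3.02e-09) and Egln3 0.58 (SE 0.106, adjusted p = 1.08e-05). Aldoc had 0.89 (SE 0.177, adjusted p = 5.31e-05), since it fell less in knockout cells. The interaction of Bnip3 did not pass the threshold (log2 0.16, adjusted p = 0.234).

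**Figure D3:**
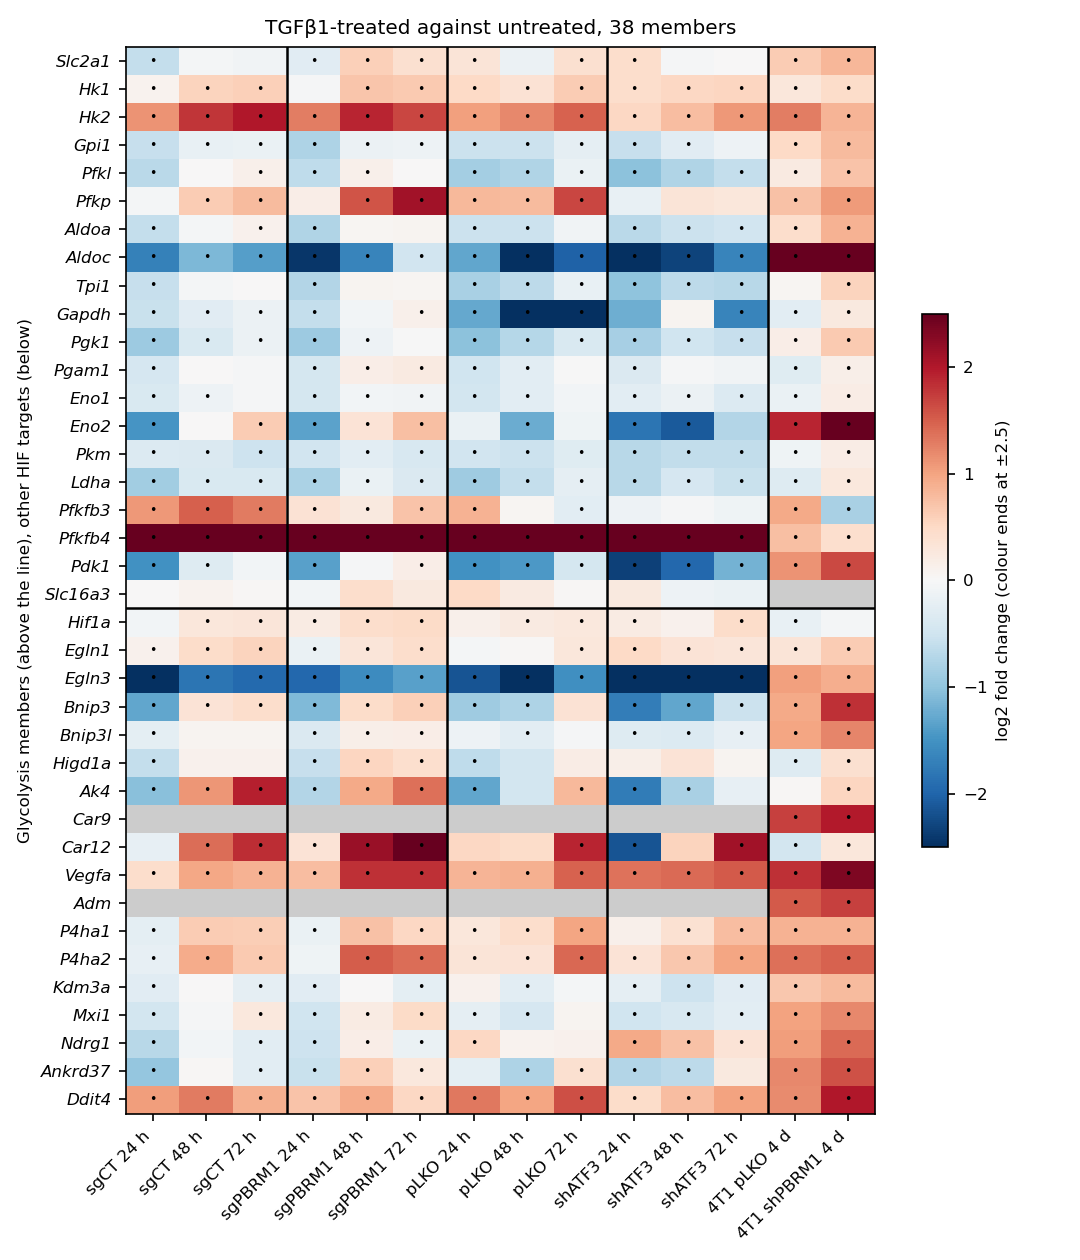
Heat map of the log2 change under TGFβ1 against 0 h within each cell type for the 38 members (rows), with colours ending at 2.5 in both directions, grey for members not tested and dots for adjusted p under 0.05. Pfkfb4 rises in all 4 NMuMG cell types (log2 3.19 to 3.71 at 72 h) and Egln3 falls in them, while in 4T1 cells Egln3 rises (log2 1.03 and 0.91).

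Experiment 2 set the libraries labelled ATF3 knockdown against pLKO, and most members were lower in the former. At 0 h, 29 of the 36 tested members were lower and 2 higher, where 18.4% of all genes were called lower and 18.6% higher. At 24 h, 28 were lower and 1 higher (Pfkfb4), against 16.6% and 15.2% of all genes. At 48 h, 23 were lower and 1 higher (Pfkfb3), against 13.8% and 11.8%, and without replicate 2 or 3 of the labelled libraries at 48 h, 2 were higher. At 72 h, 29 were lower and 1 higher (Pfkfb3), against 15% and 15.6%. The median over members was −0.57, −0.58, −0.30 and −0.71 in order of time. As many members were lower at 0 h as at 72 h. Leaving out 1 library at a time gave 27 to 29 lower at 0 h and 28 to 30 at 72 h. Atf3 mRNA was not lower in the labelled libraries at 0 h and was called lower at 24 and 72 h. Its part in these differences was not tested.

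The Gapdh row of experiment 2 stood apart. It held 186, 204 and 182 CPM in pLKO at 0 h and 106, 27 and 20.8 CPM in the shATF3 libraries, where experiment 1 had group means of 1850 to 3020 CPM. Gapdh, the glyceraldehyde-3-phosphate dehydrogenase gene, has 78 near-identical copies (at least 95% identity over at least 200 bases) in the table. The copies together held 92.9% of the family's counts in experiment 2, 11.4% in experiment 1 and 21.3% in experiment 3. The copy Gm13394 on chromosome 2, at 99.9% identity, held 324379 counts in experiment 2. With the copies summed, an alternative chosen after seeing the data, the family was lower in the shATF3 libraries, with a log2 difference of −0.55 at 0 h (adjusted p = 8.02e-06), −0.48 at 24 h (adjusted p = 5.44e-05) and −0.35 at 72 h (adjusted p = 0.00197), and the difference at 48 h was −0.12 (adjusted p = 0.358). The values of the Gapdh row alone are thus uncertain in experiment 2. Eno1, enolase 1, has copies that held 28.2%, 37.6% and 19.8% of its family's counts in the 3 experiments, and its values carry the same limit in part.

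**Figure D4:**
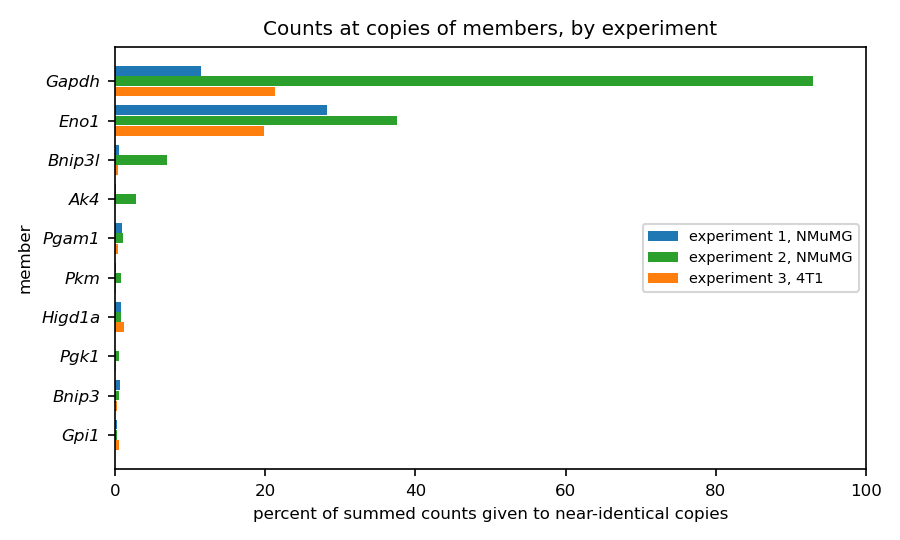
Share of a member's family of counts, in percent, held by near-identical copies of the gene, as bars from 0 for the 10 members with the largest shares, in each of the 3 experiments. For Gapdh the copies held 92.9% in experiment 2 against 11.4% and 21.3% in experiments 1 and 3.

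The abundant glycolytic enzymes were lower in the libraries labelled ATF3 knockdown at every time given here. Ldha read 929, 950 and 919 CPM at 0 h against 1650, 1680 and 1650 CPM in pLKO (log2 −0.83, adjusted p = 2.9e-11), and 692, 591 and 625 CPM against 1370, 1540 and 1360 CPM at 72 h (log2 −1.16, SE 0.0632, adjusted p = 8.71e-14). Pgk1 read 764, 771 and 763 CPM against 1350, 1340 and 1340 CPM at 0 h (log2 −0.81, adjusted p = 1.96e-11), and 559, 472 and 517 CPM against 964, 1110 and 1000 CPM at 72 h (log2 −0.99, adjusted p = 8.93e-13). Neither gene overlapped between the genotypes at these times. Pkm was 1220, 1180 and 1180 CPM against 2430, 2320 and 2340 CPM at 24 h (log2 −0.99, SE 0.0422, adjusted p = 7.27e-16). Slc2a1 was lower by less, at 87.1, 97.6 and 87.5 CPM against 107, 118 and 119 CPM at 0 h (log2 −0.34, adjusted p = 0.00391). Hk2 was one of the 2 members that were higher at 0 h, at 119, 112 and 123 CPM against 96, 93.2 and 94.9 CPM (log2 0.31, adjusted p = 2.15e-05). The other was Pfkfb3 (log2 0.50, adjusted p = 0.000266).

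Pdk1 read 63, 51.6 and 51.5 CPM against 113, 115 and 113 CPM at 0 h (log2 −1.03, SE 0.141, adjusted p = 1.16e-06) and 24.3, 25.5 and 23.3 CPM against 73.9, 84.6 and 92.8 CPM at 72 h (log2 −1.78, SE 0.151, adjusted p = 4.74e-10). Bnip3 read 40.3, 35.2 and 38.9 CPM against 96.7, 101 and 96.6 CPM at 0 h (log2 −1.36, adjusted p = 1.61e-06) and 31, 23.3 and 24.6 CPM against 112, 132 and 135 CPM at 72 h (log2 −2.27, SE 0.198, adjusted p = 8.08e-10). Both genes lay wholly below pLKO at both times. Egln3 fell to the lowest level of any group in these libraries: 37.5, 38.8 and 42.4 CPM at 0 h became 2.81, 2.06 and 3.15 CPM at 24 h and 2.98, 2.95 and 3.08 CPM at 72 h. At 72 h pLKO held 23.1, 34.4 and 32.4 CPM (log2 −3.32, SE 0.269, adjusted p = 2e-10). Ak4 read 18.5, 17.9 and 18.4 CPM in pLKO and 4.76, 4.85 and 4.05 CPM in the labelled libraries at 0 h (log2 −2), and the difference was −3.02 at 72 h (28.6, 34.2 and 33.3 CPM against 4.62, 3.19 and 4.05 CPM). Aldoc read 13, 14 and 13.2 CPM against 2.66, 3.04 and 3.17 CPM at 0 h (log2 −2.18).

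Not every member was lower. Pfkfb4 overlapped pLKO at 0 h (4.21, 3.95 and 4.51 CPM, log2 0.02, adjusted p = 0.962) and rose to 47.2, 47.8 and 50 CPM at 72 h in the labelled libraries. Hif1a overlapped at 0 h (164, 141 and 140 CPM against 159, 162 and 164 CPM, adjusted p = 0.177) and at 72 h (190, 225 and 193 CPM against 192, 179 and 209 CPM, adjusted p = 0.501). Egln1, in contrast, was lower at 0 h, at 106, 93.8 and 99.3 CPM against 144, 149 and 146 CPM (log2 −0.56, adjusted p = 2.37e-08). Vegfa was lower at 0 h (126, 145 and 137 CPM against 197, 211 and 204 CPM, log2 −0.58, adjusted p = 1.9e-08) and at 72 h (400, 371 and 407 CPM, log2 −0.52, adjusted p = 1.18e-07), and at 24 h it overlapped pLKO (log2 −0.07).

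In the labelled libraries 20 members were lower and 10 higher after 24 h of TGFβ1, where 24.2% and 25% of all genes were called. After 72 h, 15 were lower and 11 higher, against 26.6% and 27.8%. Under library totals alone the share of higher calls over all genes went from 50.8% to 30.4% at 24 h and from 51.1% to 35.8% at 72 h, and 18 members were lower and 10 higher at 72 h. The interaction at 72 h was negative for 14 members and positive for 0 past the threshold, where 7.19% and 5.67% of all genes were called, and at an unadjusted p under 0.05 and by DESeq2 0 were positive too. Without the filter on low counts, or without replicate 1 of the labelled libraries at 0 h, 1 was positive. It was −2.18 for Egln3 (SE 0.338, adjusted p = 3.2e-05), −0.75 for Pdk1 (SE 0.205, adjusted p = 0.0132) and −1.38 for Pfkp (SE 0.285, adjusted p = 0.00102). Those of Bnip3 (−0.90, adjusted p = 0.0248) and Ak4 (−1.02, adjusted p = 0.0322) lost their call without 1 of several libraries, as given in the closing part. The Pfkp value is uncertain as in experiment 1, since the overlapping Pitrm1 held 79094 counts in experiment 2 where Pfkp held 2479.

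In 4T1 cells most members were higher after TGFβ1, and most were lower in PBRM1 knockdown than in control cells. In pLKO cells 27 of the 37 tested members were higher after 4 days and 8 lower, where 39.1% and 35.4% of all genes were called. In shPBRM1 cells 35 were higher and 1 lower (Pfkfb3), against 35.2% and 34.7%. In pLKO cells the glycolysis members had 13 higher and 5 lower (median 0.43), and the other HIF targets 14 higher and 3 lower (median 1). In shPBRM1 cells the glycolysis members had 18 higher and 1 lower (median 0.65), and the other HIF targets 17 higher and 0 lower (median 1.22). Untreated knockdown cells had 33 members lower and 2 higher (Hk1 and Pfkfb3) than control cells, where 23.5% and 27.5% of all genes were called (median −0.59). After 4 days 27 were lower and 4 higher (Hk1, Egln1, Higd1a and Vegfa), against 27.3% and 27.8% (median −0.26). Leaving out replicate 1 or 2 of the treated control or 2 or 3 of the treated knockdown cells gave 2 higher. Under scaling by library totals alone the share of higher calls over all genes moved from 54% to 65.4% untreated and from 50.5% to 61.6% after 4 days. The member counts untreated were the same under it, and after 4 days 22 members were lower and 6 higher. With TMM, the median difference between knockdown and control was −0.51 untreated and −0.26 after 4 days for the glycolysis members. For the other HIF targets it was −0.6 and −0.14.

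Among the glycolytic enzymes in 4T1 cells, Pgk1 read 1400, 1390 and 1440 CPM in untreated control and 716, 699 and 699 CPM in untreated knockdown cells (log2 −1, SE 0.0326, adjusted p = 5.12e-23). After 4 days the values were 1550, 1560 and 1620 CPM and 1010, 1140 and 1170 CPM (log2 −0.51, adjusted p = 2.11e-15). Aldoa read 1660, 1650 and 1610 CPM against 866, 843 and 837 CPM untreated (log2 −0.95, SE 0.0342, adjusted p = 6.68e-22). Ldha changed under TGFβ1 in opposite directions in the cell types. It went from 2340, 2340 and 2410 CPM to 1850, 1860 and 1950 CPM in control (log2 −0.33, adjusted p = 1.22e-13) and from 1330, 1310 and 1290 CPM to 1500, 1610 and 1630 CPM in knockdown cells (log2 0.27). Gapdh, Eno1 and Pgam1, with near-identical copies summed, also fell in control (log2 −0.26, −0.18 and −0.3) and rose in knockdown cells (log2 0.26, 0.18 and 0.14). Of the genes of glucose uptake and glycolytic enzymes, 10 were higher and 5 lower in control, and 16 higher and 0 lower in knockdown cells. Eno2 read 6.69, 6.26 and 5.87 CPM in untreated control and 1.21, 0.639 and 0.567 CPM in knockdown cells, and 24.1, 24.3 and 21.6 CPM against 8.13, 9.93 and 9.09 CPM after 4 days (log2 −1.38, SE 0.0878, adjusted p = 2.72e-15). Aldoc rose from 10.6, 7.22 and 7.83 CPM to 52.3, 56 and 49.8 CPM in control cells (log2 2.62, SE 0.0968, adjusted p = 1.19e-22). Hk2 rose from 126, 124 and 121 CPM to 301, 300 and 294 CPM in control (log2 1.27) and from 88.7, 87.4 and 85.2 CPM to 148, 162 and 161 CPM in knockdown cells, so that the gap after 4 days was −0.93 (SE 0.0318, adjusted p = 9.76e-23).

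Pfkfb3 crossed over. It read 8.27, 7.38 and 8.31 CPM in untreated control and 9.7, 11.2 and 11.2 CPM in untreated knockdown cells (log2 0.43, adjusted p = 0.000168), and 15.7, 16.3 and 14.3 CPM against 6.5, 5.94 and 5.88 CPM after 4 days (log2 −1.33, SE 0.0886, adjusted p = 8e-15). It was the 1 member that fell in knockdown cells under TGFβ1 (log2 −0.81). Pfkfb4 overlapped between untreated groups and rose in control cells from 6.45, 4.4 and 4.92 CPM to 8.91, 8.77 and 9.13 CPM (log2 0.76, adjusted p = 1.68e-07). Pdk1 read 88.9, 90.4 and 91.3 CPM against 53.7, 48.9 and 47 CPM untreated (log2 −0.86, SE 0.0516, adjusted p = 7.58e-16) and 193, 195 and 204 CPM against 139, 164 and 166 CPM after 4 days (log2 −0.34, adjusted p = 3.35e-08).

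The other HIF targets of 4T1 cells followed the same lines. Bnip3 read 130, 122 and 124 CPM in untreated control and 49.8, 51.8 and 45 CPM in knockdown cells (log2 −1.37, SE 0.0467, adjusted p = 2.07e-22), and 237, 245 and 245 CPM against 158, 181 and 179 CPM after 4 days (log2 −0.49). Car9, a carbonic anhydrase of the cell surface that is a standard hypoxia marker, read 51.9, 42.7 and 45 CPM against 19.6, 17.4 and 16.6 CPM untreated (log2 −1.39, SE 0.0853, adjusted p = 1.37e-15). After 4 days it read 147, 163 and 148 CPM against 59.2, 76 and 76.1 CPM (log2 −1.13, SE 0.0606, adjusted p = 2.75e-17). The gap therefore held at both times, without overlap. Car12 was 62.6, 62.3 and 61.2 CPM against 29.8, 29 and 31.5 CPM untreated (log2 −1.04, SE 0.0498, adjusted p = 1.67e-18) and 46.8, 43.4 and 44.9 CPM against 33.7, 39.4 and 37 CPM after 4 days. Adm read 8.9, 6.76 and 8.05 CPM against 3.41, 4.51 and 4.54 CPM untreated and 20.7, 22.5 and 25.3 CPM against 12.2, 14.4 and 14.9 CPM after 4 days (log2 −0.73, adjusted p = 9.69e-09).

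Hif1a was 155, 150 and 160 CPM in untreated control and 126, 128 and 122 CPM in knockdown cells (log2 −0.31, SE 0.0351, adjusted p = 4.68e-09). Egln1 was lower by less, at 139, 137 and 128 CPM against 162, 152 and 158 CPM (log2 −0.23). Egln3 read 60.4, 60.5 and 56.6 CPM against 35, 32 and 32.1 CPM untreated, and 114, 124 and 125 CPM against 60.9, 61.3 and 64.2 CPM after 4 days (log2 −0.96, SE 0.0391, adjusted p = 1.12e-20). It rose under TGFβ1 in both 4T1 cell types (log2 1.03 and 0.91). Vegfa read 65.3, 59.8 and 56.2 CPM in untreated control and 209, 227 and 205 CPM after 4 days (log2 1.82, SE 0.0455, adjusted p = 2.23e-27). In knockdown cells it went from 48.9, 48.9 and 46.9 CPM to 228, 258 and 248 CPM (log2 2.34), and ended slightly above control (log2 0.19, adjusted p = 0.000109). Ddit4 went from 98.8, 96.9 and 93.1 CPM to 221, 232 and 208 CPM in control and from 52.5, 50.6 and 49.2 CPM to 196, 208 and 207 CPM in knockdown cells (log2 2, SE 0.0395, adjusted p = 8.72e-30).

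**Figure D5:**
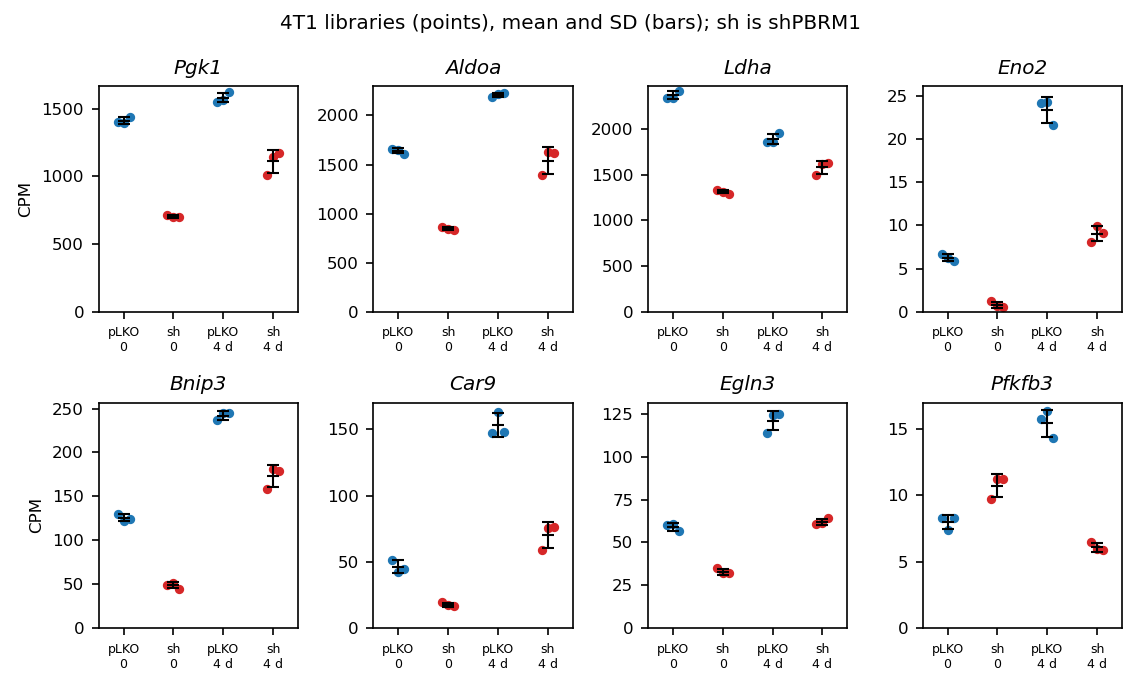
Levels of Pgk1, Aldoa, Ldha, Eno2, Bnip3, Car9, Egln3 and Pfkfb3 in CPM (vertical axes) in 4T1 control and PBRM1 knockdown libraries, untreated and after 4 days of TGFβ1 (horizontal axes). Points are libraries and black marks are means with SD: Pgk1 is 1390 to 1440 CPM in untreated control and 699 to 716 CPM in untreated knockdown cells, and Pfkfb3 is higher in knockdown cells untreated and lower after 4 days.

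The difference between the 4T1 cell types was thus smaller after TGFβ1. The interaction was positive for 29 members and negative for 2 (Hk2 and Pfkfb3), where 13.2% and 15.1% of all genes were called, with a median over members of 0.35. Eno2 had 1.63 (SE 0.218, adjusted p = 4.64e-07), Bnip3 0.88 (SE 0.0614, adjusted p = 3.02e-13) and Ddit4 0.81 (SE 0.0541, adjusted p = 9.17e-14). The level of Eno2 in untreated knockdown cells was near or under 1 CPM, so the size of its interaction rests on few reads. Ldha had 0.59 (SE 0.0361, adjusted p = 8.7e-15), and Pfkfb3 had the largest negative value at −1.76 (SE 0.127, adjusted p = 6.71e-13). Car9 (log2 0.26) and Egln3 (log2 −0.12) did not pass the threshold.

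Of the 35 members tested in both lines, 22 were higher in every PBRM1 knockout NMuMG library than in every control library and lower in every PBRM1 knockdown 4T1 library than in every control library without TGFβ1, and 0 were the other way round. Of the 12331 genes tested in both lines, 7.06% met the first rule and 8.65% the second. The 22 members include Bnip3, Egln3, Pdk1, Pgk1 and Eno2. The lines were counted and fitted apart, the loss of PBRM1 was by knockout in one and by knockdown in the other, and the difference between the lines was not tested.

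The pathway's genes outside the 38 were counted in the same fits. Of 22 other HIF targets tested in NMuMG cells, 12 were higher and 4 lower in PBRM1 knockout cells at 0 h, and 19 higher and 2 lower at 72 h, when Gbe1, the glycogen branching enzyme, was higher by 1.03 and Angptl4, a lipoprotein lipase inhibitor, by 0.91. Of all genes 21.9% were higher and 23.2% lower at 0 h, and 24.3% and 25.6% at 72 h. In the libraries labelled ATF3 knockdown 9 were lower and 5 higher at 0 h, where 18.4% and 18.6% of all genes were called, and 8 lower and 4 higher at 72 h, against 15% and 15.6%, when Fam162a, a mitochondrial HIF target, was lower (log2 −1.22). In untreated 4T1 knockdown cells 15 of 20 were lower and 0 higher, against 23.5% and 27.5% of all genes, with Gbe1 at a log2 of −1.01 and Bhlhe40, a circadian repressor, at −0.85. Other genes of glycolysis and pyruvate use were counted as well. In PBRM1 knockout cells 5 of 23 were higher and 11 lower at 0 h, with Eno3, the muscle enolase, at 15.5 against 43.9 CPM (log2 −1.5). In untreated 4T1 knockdown cells 3 of 20 were higher and 8 lower. Of 13 regulators of HIF, 4 were higher and 2 lower in PBRM1 knockout cells at 0 h, with Vhl higher by 0.31 and Hif1an, an asparaginyl hydroxylase of HIF, lower (log2 −0.34), and 4 and 2 of 13 are near the shares of all genes called.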

How the data were processed

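RNA was sequenced from 60 libraries in 20 groups of 3, and the 3 deposited tables hold raw read counts per gene, per the file headers. The NMuMG libraries were made and analysed by a sequencing company and the 4T1 libraries used a stranded mRNA kit with paired reads, per the labels' protocols. Trim Galore 0.6.7, STAR 2.7.10a, HISAT2, DESeq2, edgeR and mm10 are named in the submitters' processing notes, without the role of each, and no strand setting of the counting is stated.

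Each table was fitted alone with edgeR 4.0.16 in R 4.3.3, with TMM scaling, filterByExpr (minimum count 10, minimum total 15), 1 coefficient per group and the quasi-likelihood test. Tests were two-sided with Benjamini-Hochberg adjustment over all genes tested and a threshold of 0.05. CPM were computed from the counts, and the SE is the log2 change over the square root of F. With 3 libraries a group the smallest exact p is 0.1, so no single-gene permutation test was used. The fit was also run on simulated counts in which few genes changed, so that run does not test the scaling where many genes differ. The members and gene lists were chosen with earlier results of these data known. Library values were given for Hif1a, Egln1, Egln3, Bnip3, Pdk1, Ldha, Pgk1, Slc2a1 and Vegfa and for the 3 glycolysis members and 3 other members with the largest called change among those with at least 10 CPM in the higher group. Interactions were named where called and at least 0.58 in size. Values for other members, such as Car12 at 0 h, were added after they were seen. Of other genes at most 3 a list were named. Copies of a member were found with blastn 2.17.0. A second row named Aldoa held at most 486 counts in a table and was kept apart. TMM factors were 0.941 to 1.08, 0.954 to 1.09 and 0.973 to 1.03. Alternatives were other scaling, no filter on low counts, DESeq2 1.42.0, a replicate block, only the groups compared, leaving out each replicate and, added after seeing the data, summing near-identical copies.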

Additional observations from a re-analysis of the deposited data

Results flagged for a closer look

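In NMuMG cells the change by 72 h of TGFβ1 differed between PBRM1 knockout and control cells by at least 0.58 (log2) at 6 members by the interaction term. It was 1.31 for Pfkp, 0.89 for Aldoc, 0.58 for Egln3, 1.30 for Car12, 0.95 for Vegfa and 0.75 for P4ha2, all on the log2 scale and with adjusted p between 4.71e-25 and 5.31e-05 in edgeR. Pfkp overlaps a gene with many more counts on the other strand.

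In experiment 2 the change by 72 h differed between the libraries labelled ATF3 knockdown and pLKO by at least that much at 5 members. The interaction was −1.38 for Pfkp, −0.75 for Pdk1, −2.18 for Egln3, −0.90 for Bnip3 and −1.02 for Ak4, with adjusted p between 3.2e-05 and 0.0322. Egln3 in the labelled libraries was at 2.06 to 3.15 CPM after 24 h. The overlap of Pfkp with a gene of many more counts applies in experiment 2 as well.

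In 4T1 cells the change over 4 days differed between PBRM1 knockdown and control cells by at least that much at 8 members. The interaction was 0.99 for Aldoc, 1.63 for Eno2, 0.59 for Ldha, −1.76 for Pfkfb3, 0.88 for Bnip3, 0.72 for Higd1a, which encodes a mitochondrial protein induced by hypoxia, 0.74 for Car12 and 0.81 for Ddit4, with adjusted p between 8.7e-15 and 6.18e-05. Eno2 was near or under 1 CPM in untreated knockdown cells, so its value rests on few reads.

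Without TGFβ1, 22 of 35 members were higher in every PBRM1 knockout NMuMG library and lower in every PBRM1 knockdown 4T1 library than in every control library of that line, where 7.06% of the 12331 genes tested in both lines did the same. The opposite signs were flagged from the separate comparisons, and the difference between the lines was not tested.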

How the results depend on the processing

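Of 634 recomputed counts of members, 619 stayed within 1.5 times the value given and 15 did not. Scaling by library totals alone gave 13 members lower in PBRM1 knockout cells at 72 h of TGFβ1 in place of 8, and 8 negative interactions in place of 4. Without the filter on low counts, 2 members were higher in the shATF3 libraries at 48 h in place of 1 and 1 interaction of experiment 2 was positive in place of 0. With only the groups compared in the fit, 2 were higher at 48 h. The causes were not tested. Leaving out 1 library at a time gave 3 to 7 negative interactions in experiment 1, 2 to 4 members lower in PBRM1 knockout cells at 24 h, 0 to 1 positive interactions in experiment 2, 1 to 2 members higher in the shATF3 libraries at 48 h and 2 to 5 higher in 4T1 knockdown cells after 4 days.

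Of the recomputed values of single members, 44 lost their call, 0 changed sign and the other 4359 kept call and sign. The losses were at Gapdh (13), Car12 (11), Ak4 (9), Aldoc (5), Bnip3 (3), Eno2 (1), Higd1a (1) and Pfkp (1). The interaction of Bnip3 in experiment 2 lost its call with DESeq2 (adjusted p = 0.0568), without replicate 3 of pLKO at 72 h (0.0519) and without replicate 3 of shATF3 at 72 h (0.0624). That of Ak4 lost it in 9 of the 12 leave-outs (adjusted p 0.0519 to 0.076). The replicate numbers did not pair the samples: deviations of libraries with the same number correlated between −0.32 and 0.11, and in no comparison were all 3 above 0.1. A replicate block left every one of the 46 member counts within 1.5 times its value, for example 31 members higher in PBRM1 knockout cells at 72 h, and no call of a single named member changed. Members under about 1 CPM, such as Car9 and Adm in NMuMG cells, were too shallow to compare at these depths.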

Other observations

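In PBRM1 knockout NMuMG cells Atf3 mRNA was lower than in control at each time. It was 5.45 against 11.8 CPM at 0 h, 16.6 against 38.9 CPM at 24 h, 12.9 against 31.7 CPM at 48 h and 6.45 against 30.9 CPM at 72 h. Car9 and Adm had 93 and 41 counts in all 24 libraries of experiment 1 and 39 and 27 in experiment 2, so their CPM in NMuMG cells rest on few reads, and neither was tested there. In control 4T1 cells after 4 days of TGFβ1, Tfrc, the transferrin receptor and a HIF target outside the 38, was lower by 2.1 on the log2 scale (log2 −2.10), while Ccng2 and Stc1 were higher (log2 1.83 and 1.72).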
